A study of Mus musculus with 4 samples.

Results

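The noncoding RNAs Meg3, Rian and Mirg were lower in Zfp322a-depleted mouse ES (mES) cells. The protein-coding gene Dlk1 of the same imprinted region stayed within the spread of its control arrays. Dlk1 was dim, however, and it is not known whether it was above background. The region was taken as 7 genes: the noncoding RNAs of the maternal chromosome (Meg3, Rian and Mirg), the protein-coding genes of the paternal chromosome (Dlk1, Rtl1 and Dio3) and Begain at its edge. Members were all probe sets that the platform annotation assigned to 1 of these symbols alone, which gave 19 of the 45037 probe sets on the array: 11 for Meg3, 4 for Rian, 2 for Mirg and 2 for Dlk1. Rtl1, Dio3 and Begain had no such probe set and were not analysed here, so that Dlk1 alone stands for the protein-coding side. The genes were selected on the differences between these same control and Zfp322a RNAi arrays, which were already known, and for that reason the differences of the members are given as a description, with no p-value. Where the fit over all probe sets marks members as past its threshold, the count is printed beside that of the whole array and is no test of them, since their choice fixed it.

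RNA came from E14 cells, an mES cell line cultured with serum and leukaemia inhibitory factor (LIF), in 4 samples on 1 Affymetrix array each. In 2 samples the cells were transfected with a short hairpin RNA against the zinc finger gene Zfp322a (Zfp322a RNAi), and in 2 with pSuper.puro as mock knock-down (control RNAi). The labels give 3 days of puromycin selection for all 4, as do the study's methods for transfections in general, but their section on the arrays gives a longer time. For the control the labels name the vector alone, while that section words it as a control hairpin, so that it is uncertain which the control cells carried. The labels leave unsaid which Zfp322a hairpin was used. Nor do they tell separate cultures from repeats of 1 culture, so that every p-value measures the spread between these samples, which may be technical. The arrays hold the summed RNA of both parental chromosomes and of all cells in a dish. Values are log2 intensities after RMA, and a difference is the mean of the Zfp322a RNAi arrays minus that of the control RNAi arrays, with its standard error (SE) from limma (n = 2 per group).

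The Dlk1-Meg3 region is an imprinted domain, in which the parent of origin decides which copy of a gene is transcribed. A control element between Dlk1 and Meg3 carries DNA methylation on the paternal chromosome; its unmethylated maternal copy drives the noncoding RNAs, which are transcribed in 1 direction and serve as hosts of small nucleolar RNAs and microRNAs. In mouse pluripotent stem cells the noncoding RNAs are known as a readout of this imprint, since they are silenced in many induced pluripotent clones of low developmental potency. Dlk1 encodes a transmembrane protein related to Notch ligands, Rtl1 a retrotransposon-derived protein needed in the placenta, and Dio3 a deiodinase that inactivates thyroid hormone.

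The annotated promoters are shown for a noncoding RNA at the head of the domain, for a noncoding RNA further along it and for Dlk1, because the first pair was lower on the arrays and Dlk1 was not. Each window is 300 bases, 250 before the annotated start and 50 after it, from RefSeq on GRCm38.p6. Capitals mark matches on either strand to TGCCGC, the hexamer bound by the imprint guardian ZFP57, and to TGACG, which is part of a cAMP response element; the Meg3 and Dlk1 windows shown hold at least 1 match. RefSeq has a second annotated start of Meg3, whose window is not printed.
Meg3, chr12:109540746-109541045, + strand: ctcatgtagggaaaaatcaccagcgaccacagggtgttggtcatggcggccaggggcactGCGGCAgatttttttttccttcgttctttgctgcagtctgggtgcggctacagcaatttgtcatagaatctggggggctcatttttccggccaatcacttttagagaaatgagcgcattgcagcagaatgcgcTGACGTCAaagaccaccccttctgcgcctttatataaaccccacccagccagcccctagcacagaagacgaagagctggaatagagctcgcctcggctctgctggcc
Rian, chr12:109603695-109603994, + strand: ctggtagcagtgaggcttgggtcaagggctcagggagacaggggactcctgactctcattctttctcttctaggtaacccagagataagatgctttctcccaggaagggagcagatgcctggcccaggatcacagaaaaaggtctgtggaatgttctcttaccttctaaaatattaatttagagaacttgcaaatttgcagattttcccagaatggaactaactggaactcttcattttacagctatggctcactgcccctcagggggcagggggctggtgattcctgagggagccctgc
Dlk1, chr12:109452573-109452872, + strand: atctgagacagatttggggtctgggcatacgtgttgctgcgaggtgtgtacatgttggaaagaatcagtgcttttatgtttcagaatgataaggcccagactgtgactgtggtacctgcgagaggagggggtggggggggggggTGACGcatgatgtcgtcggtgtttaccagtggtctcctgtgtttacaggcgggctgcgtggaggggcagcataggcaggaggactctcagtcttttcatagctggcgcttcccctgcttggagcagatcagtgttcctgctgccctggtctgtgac
The Meg3 window shown held 1 match to TGCCGC, starting at base -190 from the annotated start, and overlapping matches to TGACG on both strands from base -57, which together spell the full palindrome. The window of the second Meg3 start, chr12:109545148-109545447, held 0 matches to either motif and 1 CG dinucleotide. TGCCGC was found in 11.6% of 32851 annotated promoter windows, TGACG in 20.8% and the full palindrome in 1.79%. The Dlk1 window held 1 match to TGACG, from base -106, and the Rian and Mirg windows held 0 of either. In CG dinucleotides, which are the sites of DNA methylation, the windows differed as well: 13 for the first Meg3 start, 9 for Dlk1, 10 for Mirg and 0 for Rian, against a median of 7 over all windows. A match is a string of letters in a window and not a bound site. Binding, methylation and whether transcription begins at each annotated start, that of Rian among them, were not measured here.

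As a check of the labels, Zfp322a itself was examined first. Its probe set 1439035_at had values of 8.75 and 8.84 under control RNAi and of 7.53 and 7.13 under Zfp322a RNAi, so that 36.2% remained (difference -1.47 ± 0.14, adjusted p = 0.00220 with limma). The probe set 1452374_at left 27.4% (-1.87 ± 0.09, adjusted p = 9.35e-04 with limma). Both were lower in the libraries labelled Zfp322a RNAi.

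Meg3, the long noncoding RNA from which the maternal transcription starts, was lower on all 11 of its probe sets. The brightest, 1439380_x_at, had values of 12.65 and 12.76 under control RNAi and of 11.55 and 11.62 under Zfp322a RNAi. Both knock-down arrays lay more than a log2 unit under both control arrays, with means of 12.71 ± 0.08 and 11.59 ± 0.05 (SD, n = 2), so that 46.0% remained (-1.12 ± 0.08). In bulk RNA of this kind, fewer cells with Meg3 and less Meg3 per cell cannot be told apart. The largest difference of a Meg3 probe set was that of 1426758_s_at, at 11.03 and 11.20 in control cells and 9.71 and 9.69 in depleted cells (-1.42 ± 0.09, 37.5% left). A probe set built on the same cDNA, 1452183_a_at, read 12.14 and 12.28 against 10.90 and 10.95 (-1.29 ± 0.09, 41.0% left). This pair shares its target, so that it is not independent evidence of the size. At the other end stood 1429256_at, with 5.45 and 5.39 against 5.16 and 5.35 (-0.17 ± 0.09). Its arrays did not overlap, but the gap between the groups was 0.04, which is under the gap of 0.19 within the knock-down group.

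The differences varied among the 11 Meg3 probe sets. The 4 probe sets with a control mean over 11 differed by -1.42 to -1.02, and the 6 with a control mean of 8 or under by -0.72 to -0.17. The probe set between them, 1436713_s_at, had 10.26 and 10.19 against 9.30 and 9.12 (-1.02 ± 0.09). Probe sets built on 1 cDNA could differ too: 1452905_at, 1428764_at and 1428765_at share theirs and gave -1.02, -0.72 and -0.52. How far the probes' own binding or the background of the array enters these sizes was not tested.

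**Figure D1:**
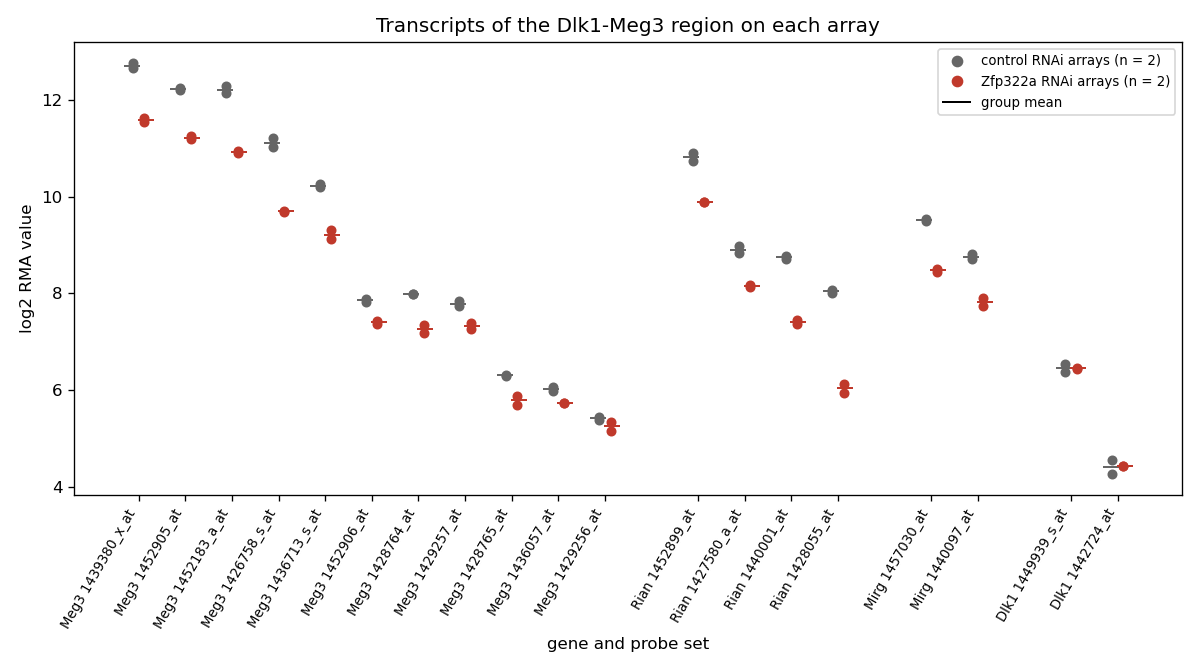
Log2 RMA value (y axis) of each probe set of Meg3, Rian, Mirg and Dlk1 (x axis) on the 2 control RNAi arrays (grey) and the 2 Zfp322a RNAi arrays (red), with short lines for group means. All 17 probe sets of the noncoding RNAs have both red points below both grey points, and the 2 of Dlk1 have red points between the grey ones.

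Rian, the noncoding RNA that follows Meg3 and hosts a row of small nucleolar RNAs, held the largest single fall. Its probe set 1428055_at read 8.01 and 8.07 in control RNAi cells and 6.13 and 5.95 in Zfp322a RNAi cells, which left 25.0% of the control level (-2.00 ± 0.09). Of all 45037 probe sets this difference ranked 1 from the lowest, with no other at the same value. The probe set 1440001_at, at 8.72 and 8.77 against 7.36 and 7.45, ranked 37 (-1.34 ± 0.08, 39.5% left). The brightest probe set of Rian, 1452899_at, changed less: 10.73 and 10.89 in control cells and 9.88 on both knock-down arrays (-0.93 ± 0.09, 52.5% left). The 4 probe sets thus ran from -2.00 to -0.75, and the smallest of these differences, that of 1427580_a_at (8.83 and 8.98 against 8.17 and 8.14), still left a gap of 0.66 between the groups. Within Rian the largest difference belonged to the dimmest probe set.

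Mirg, the noncoding host of a microRNA cluster, was lower on both of its probe sets. The brighter, 1457030_at, read 9.49 and 9.54 against 8.51 and 8.44 (-1.04 ± 0.08, 48.6% left). The dimmer, 1440097_at, read 8.81 and 8.71 against 7.91 and 7.74 (-0.94 ± 0.09, 52.3% left). The groups were separated by at least 0.80, where the arrays of a group lay at most 0.17 apart. On the strand of the transcripts, RefSeq annotates 28 mature microRNA sequences inside the spans of Meg3 (3), Rian (6) and Mirg (19). The arrays measured the host transcripts and not these mature RNAs. A few are printed to show what the hosts carry, with the seed (bases 2 to 8) in capitals, from RefSeq on GRCm38.p6. The first lies in Meg3, the second in Rian and the others in Mirg.
mmu-miR-770-3p, chr12:109563744-109563765, + strand: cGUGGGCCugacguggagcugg
mmu-miR-370-3p, chr12:109618305-109618326, + strand: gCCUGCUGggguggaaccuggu
mmu-miR-453, chr12:109735669-109735692, + strand: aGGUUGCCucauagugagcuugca
mmu-miR-496a-5p, chr12:109739132-109739152, + strand: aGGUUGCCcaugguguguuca
mmu-miR-410-3p, chr12:109743764-109743784, + strand: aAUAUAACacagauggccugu
Among the 28 mature sequences 1 seed was shared, that of mmu-miR-453 and mmu-miR-496a-5p, both inside Mirg.

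Dlk1, the paternally expressed neighbour across the control element, did not move with the noncoding RNAs. The probe set 1449939_s_at read 6.38 and 6.55 in control cells and 6.44 and 6.46 in depleted cells (-0.02 ± 0.09). The probe set 1442724_at read 4.55 and 4.26 against 4.43 and 4.44 (0.03 ± 0.11). On both, the knock-down arrays lay between the control arrays, which were 0.17 and 0.29 apart. The medians of the arrays lay between 6.07 and 6.11, close to the first of these probe sets and above the second, and the table gives no detection call, so that it is not known whether Dlk1 was above background.

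Set side by side, the 17 probe sets of the noncoding RNAs had a median difference of -0.94, with a range from -2.00 to -0.17, and the 2 of Dlk1 a median of 0.01. The median over all 45037 probe sets was -0.03. Both knock-down arrays showed it, with medians of -0.93 and -1.02 against the control mean, whereas the control arrays lay at -0.03 and 0.03. In the fit over all probe sets, 16 of the 17 noncoding probe sets and 0 of the 2 of Dlk1 were past the threshold, an outcome that the choice of the members fixed. Over all probe sets 20.1% had an adjusted p of 0.05 or less with limma in either direction, 9.47% as lower and 10.6% as higher. The exception was 1429256_at of Meg3, the dimmest. Both knock-down arrays lay under both control arrays for 17 of 17 noncoding probe sets, as they did for 32.4% of all probe sets, while the reverse held for 0 of the 19 members and 25.1% of all. A threshold of 1.5-fold, which the study used, was passed downwards by 12 of 17 (2.64% of all probe sets; 4.67% passed it upwards), and 2-fold by 8 of 17 (0.333%). Because the members were proposed with this comparison known, nothing is read from the counts. Without any 1 of the 4 arrays all 17 noncoding probe sets stayed lower and their median lay between -1.02 and -0.93, but 0 probe sets on the whole array then passed the adjusted p. Of the noncoding probe sets 3, all of Meg3, end in _s_at or _x_at, which marks probes that can match more than 1 transcript. Without these the other 14 had a median of -0.84 and were all lower. The brighter Dlk1 probe set, 1449939_s_at, is of that kind too. Without it Dlk1 rests on 1442724_at alone, at 4.55 and 4.26 against 4.43 and 4.44, well under the medians of the arrays.

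**Figure D2:**
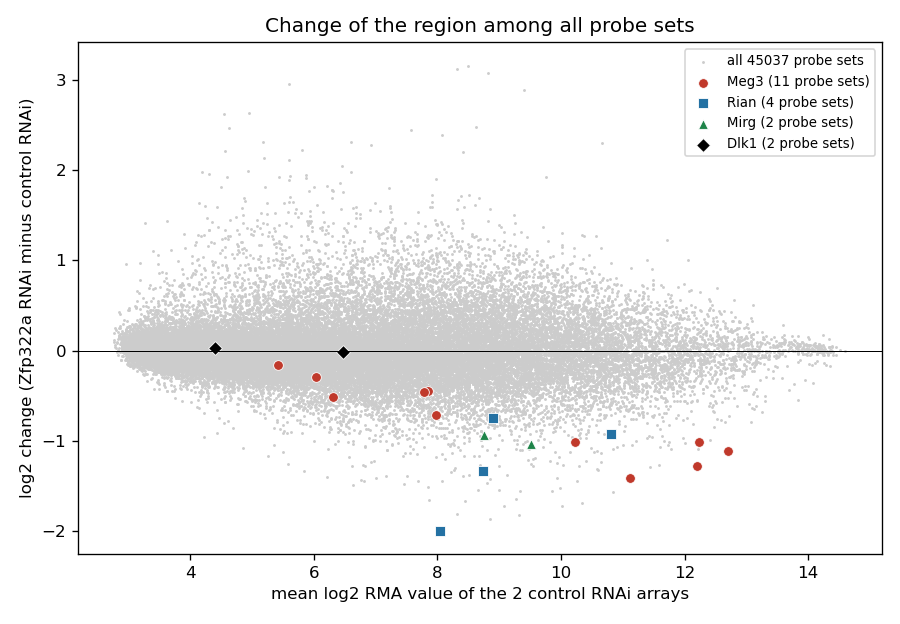
Log2 change (Zfp322a RNAi minus control RNAi, y axis) against the mean of the 2 control arrays (x axis) for all 45037 probe sets (light grey), with those of Meg3, Rian, Mirg and Dlk1 in colour. All noncoding probe sets lie below the zero line, from -0.17 for a dim Meg3 probe set to -2.00 for Rian, and the 2 Dlk1 probe sets lie close to it.

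The genes around the domain were compared to see whether the difference extended along chromosome 12. Inside it, RefSeq lists 99 further genes between Begain and Dio3, of which 61 are microRNA and 19 small nucleolar RNA genes, and 2 of the 99 had a probe set. These were Dio3os, the antisense partner of Dio3 (5.84 and 5.81 against 5.80 and 5.94; 0.05 ± 0.08, adjusted p = 0.768 with limma), and the noncoding gene 3110009F21Rik (-0.14 ± 0.14, adjusted p = 0.537 with limma). Neither passed the test, and the control means of both were under the medians of the arrays. Of the 15 nearest protein-coding genes measured on each side, 3 rose, 3 fell and 24 did not pass, with a median of -0.04 and a range from -0.42 to 0.84; over all genes 23.7% passed. Wdr25, the nearest before Begain, had 6.12 and 6.38 against 6.05 and 6.05 (-0.20 ± 0.11, adjusted p = 0.253 with limma). Ppp2r5c, the nearest after Dio3 and a regulatory subunit of protein phosphatase 2A, fell from 11.14 and 11.11 to 10.83 and 10.80 (-0.31 ± 0.08, adjusted p = 0.0353 with limma), and 3 of its 6 other probe sets fell as well. Beyond it the dynein heavy chain gene Dync1h1 (-0.35 ± 0.09, adjusted p = 0.0377 with limma) and Zfp839 (-0.38 ± 0.10, adjusted p = 0.0404 with limma) fell. The calls of Ppp2r5c and Dync1h1 ended with array centring (adjusted p = 0.0508 and 0.0514). Rises were those of the corepressor gene Rcor1 (0.84 ± 0.09, adjusted p = 0.00309 with limma), Wdr20 (0.51 ± 0.08, adjusted p = 0.00891 with limma) and, on the other side, the zinc finger regulator Yy1 (0.35 ± 0.08, adjusted p = 0.0315 with limma). A second probe set of Yy1 fell (-0.75), so that its direction is uncertain, and the rise of Wdr20 ended with the mean of its probe sets (adjusted p = 0.0882) and that of Rcor1 when a substitute replaced its brightest probe set, which is open to cross-hybridization (0.0745), but a further probe set of Rcor1 that is not of that kind rose by 0.86 (adjusted p = 0.00225 with limma).

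**Figure D3:**
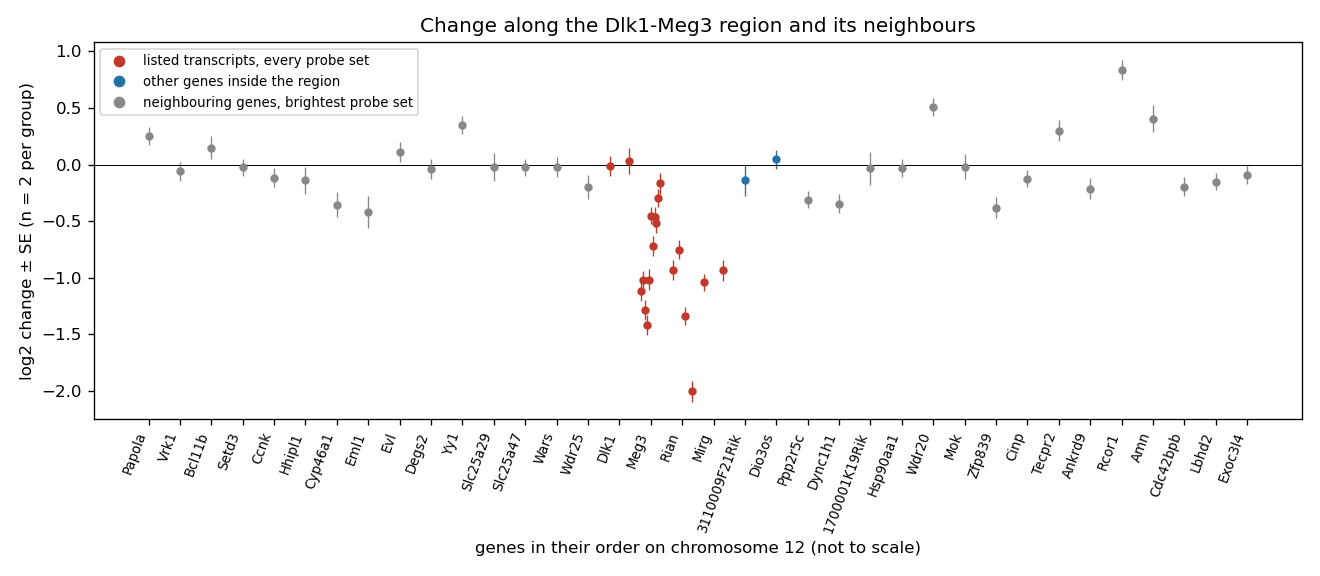
Log2 change with its SE (y axis, n = 2 arrays per group) for genes in their chromosome order (x axis, not to scale): every probe set of Dlk1, Meg3, Rian and Mirg (red), 2 other genes inside the region (blue) and the brightest probe set of 15 neighbours on each side (grey). The red points of Meg3, Rian and Mirg reach from -0.17 to -2.00, and the neighbours range from -0.42 to 0.84.

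Genes that keep or remove the marks of imprinted regions went both ways. Zfp57, which binds methylated imprint control elements and recruits the corepressor Trim28, fell from 8.13 and 8.13 to 7.53 and 7.65 (-0.54 ± 0.08, adjusted p = 0.00773 with limma). Dnmt3l, the cofactor of the de novo methyltransferases (-0.50 ± 0.07, adjusted p = 0.00767 with limma), Uhrf1, which guides maintenance methylation (-0.45 ± 0.07, adjusted p = 0.0104 with limma), and the Polycomb methyltransferase gene Ezh1 (-0.41 ± 0.08, adjusted p = 0.0197 with limma) fell as well. The de novo methyltransferase gene Dnmt3a rose (0.47 ± 0.08, adjusted p = 0.00986 with limma), on 4 of its 5 probe sets. Rises were also called for the 5-methylcytosine oxidase genes Tet1 (0.45 ± 0.08, adjusted p = 0.0135 with limma) and Tet2 (0.37 ± 0.08, adjusted p = 0.0248 with limma) and for Hells (0.36 ± 0.09, adjusted p = 0.0441 with limma). For Tet1 2 other probe sets fell and the mean of its probe sets turned (-0.29), and for Tet2 and Hells the call ended with the mean of probe sets (adjusted p = 0.173 and 0.807), so that these rises are uncertain. The maintenance methyltransferase gene Dnmt1 (-0.13 ± 0.08, adjusted p = 0.303 with limma) and Dppa3 (-0.03 ± 0.08, adjusted p = 0.850 with limma) did not pass. Neither did Trim28 on its brightest probe set (-0.15 ± 0.09, adjusted p = 0.307 with limma), though its other probe set fell (-0.30), nor the insulator gene Ctcf (-0.17 ± 0.08, adjusted p = 0.218 with limma), whose other probe set rose (0.55). Of the 21 genes of this list 4 rose, 4 fell and 13 did not pass, with a median of -0.03, beside a median of -0.04 over all genes. The share past the threshold was 38.1%, beside 23.7% of all genes. With the mean of each gene's probe sets in place of the brightest, 1 rose and 7 fell, so that the split depends on the probe set. Zfp445, which acts beside Zfp57 in imprint maintenance, was among those whose brightest probe set did not pass (0.14 ± 0.08, adjusted p = 0.274 with limma), while its 2 other probe sets fell (-0.41 and -0.85). The same held for the de novo methyltransferase gene Dnmt3b (-0.29 ± 0.08, adjusted p = 0.0504 with limma), whose other probe set fell by 0.68. Suz12 (0.23) and Jarid2 (-0.27) of this list did not pass on their brightest probe sets either, and for these other probe sets rose. The rises were 0.42 and 0.47 for Suz12 and 0.42 for Jarid2.

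Partners of the protein products were looked at next. Among Notch receptors, ligands and targets, the ligand gene Jag1 rose from 7.76 and 7.93 to 9.18 and 9.00 (1.25 ± 0.10, adjusted p = 0.00165 with limma), while Rbpj, the DNA-binding effector of the pathway, fell from 11.60 and 11.61 to 10.54 and 10.52 (-1.08 ± 0.07, adjusted p = 0.00125 with limma). Each was called the same way on 1 of its 2 other probe sets. The receptor gene Notch4 (-0.93 ± 0.08, adjusted p = 0.00177 with limma) and the inhibitory ligand gene Dll3 (-0.43 ± 0.11, adjusted p = 0.0359 with limma) fell, and the target Hes1 (0.39 ± 0.08, adjusted p = 0.0181 with limma) and the receptor gene Notch1 (0.33 ± 0.08, adjusted p = 0.0415 with limma) rose, the last not with quantile normalization (adjusted p = 0.0607). Dlk2, the paralogue of Dlk1, did not pass (-0.15 ± 0.07, adjusted p = 0.230 with limma). Of 18 genes of this list 3 rose, 3 fell and 12 did not pass (median -0.10). Thus 33.3% passed, beside 23.7% of all genes. In the list of thyroid hormone handling, the thyroid hormone-binding protein gene Crym (-0.72 ± 0.09, adjusted p = 0.00399 with limma) and the receptor gene Thra (-0.37 ± 0.09, adjusted p = 0.0426 with limma) fell, the second not with array centring (adjusted p = 0.0515). Of the 10 genes measured 8 did not pass, Dio2, which activates the hormone, among them (-0.05 ± 0.10, adjusted p = 0.813 with limma). Rxra and Klf9 were also among the 8, but for each 1 dimmer probe set rose (0.46 and 0.43). The share that passed was 20%, beside 23.7% of all genes.

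Imprinted genes at other loci were counted for comparison. Of 10 maternally expressed genes measured, 2 rose, the placental growth regulator Phlda2 (0.84 ± 0.07, adjusted p = 0.00192 with limma) and the signalling adaptor gene Grb10 (0.67 ± 0.08, adjusted p = 0.00342 with limma), and 0 fell (median 0.01). This count depends on the probe set. Dimmer probe sets rose for Igf2r (0.56) and H13 (0.80 and 0.57) and fell for Slc22a18 (-0.42). Of 21 paternally expressed genes, 6 rose, 2 fell and 13 did not pass (median 0.06). Peg3 was among the 13 by its brightest probe set (0.10), while a dimmer one rose (0.69). Over both groups 32.3% of the 31 genes passed, beside 23.7% of all genes. Impact led the rises (0.55 ± 0.08, adjusted p = 0.00599 with limma), and Mcts2 (-0.53 ± 0.08, adjusted p = 0.00667 with limma) and Snrpn (-0.35 ± 0.08, adjusted p = 0.0257 with limma) were the falls. The noncoding RNA Kcnq1ot1, whose promoter lies in an imprint control element, was higher on its brightest probe set (0.40 ± 0.09, adjusted p = 0.0312 with limma), but not with the mean of its 6 probe sets (adjusted p = 0.0585). Of its dimmer probe sets 1 rose as well (0.86), and the others did not pass. The lowest of the 31 genes, each by its brightest probe set, stood at -0.53. On that measure Meg3, Rian and Mirg of the Dlk1-Meg3 region stood at -1.12, -0.93 and -1.04, and the median over all their probe sets was -0.94. These 3 were picked with their values known, so that the difference was not tested.

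**Figure D4:**
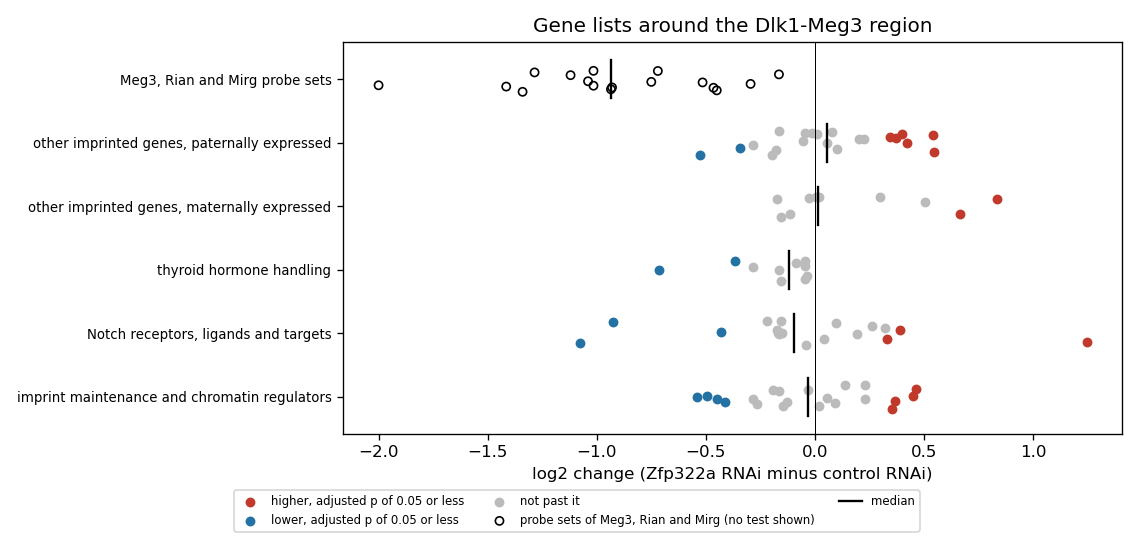
Log2 change (Zfp322a RNAi minus control RNAi, x axis) of each gene in 5 lists, by its brightest probe set, with red and blue points for genes past an adjusted p of 0.05 with limma, grey for the others and a line at each median. The open circles of the top row are the 17 probe sets of Meg3, Rian and Mirg, with a median of -0.94, and the medians of the lists lie between -0.12 and 0.06.

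The cell type on the label was checked against its markers. All 10 mES cell markers were above the median level of the probe sets, and their summed intensity was 66284 and 64707 under control RNAi, against 59350 and 59122 under Zfp322a RNAi (3 of 10 lower, 0 higher). The 3 were Utf1 (-0.65), Tdgf1 (-0.59) and Esrrb (-0.41). Pou5f1 (-0.06), Nanog (-0.03), Sox2 (0.02) and Zfp42 (0.06) were among those that did not pass. Klf4 (-0.06) and Fgf4 (-0.24) did not pass on their brightest probe sets either, but for each 1 dimmer probe set fell (-0.45 and -0.35). Meg3 and Dlk1 are also known from fibroblasts. Of 11 fibroblast and feeder cell markers 9 lay under that median, 1 fell and 0 rose. Their summed intensity was 517 and 503 against 441 and 458. The 1 that fell was Thy1 (7.12 and 7.42 against 6.77 and 6.65), the brightest of the 11 and the largest change among them. Of 6 endoderm markers 3 rose: Gata6 by 1.42 on the log2 scale (adjusted p = 0.00105 with limma), Foxa2 by 0.50 and Sox17 by 0.33. Gata4 (-0.13), Afp (-0.16) and Dab2 (0.30) did not pass, and the sum of the 6, with Gata6 the largest change in it, was 351 and 352 in control cells and 543 and 562 in depleted cells. Of 6 neural markers 2 rose, of 5 mesoderm markers 1 fell, and of 5 trophoblast markers 1 rose and 1 fell. The neural marker Pax6 did not pass on its brightest probe set (-0.15), while 2 dimmer ones rose (1.21 and 0.57). Over all genes 12.2% were called higher and 11.5% lower. The part of these cells in the values of Meg3, Rian and Mirg was not tested.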

How the data were processed

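Total RNA of E14 cells was hybridised to 1-colour Affymetrix mouse arrays, 2 of control RNAi and 2 of Zfp322a RNAi, grouped by sample title. The authors processed the arrays with RMA (version not given in the sources used here), and the deposited values are RMA values on the log2 scale for 45037 probe sets, read as log2 from their range of 2.62 to 14.6. RMA normalizes the quantiles of arrays, so that a shift of all genes would not appear, and the number of arrays limits the precision. Gene symbols came from the platform annotation (34945 with 1 symbol, 932 with several, 9160 with none). RefSeq of GRCm38.p6 matched 34741 of the first by Entrez ID. It gave names and gene order, while no build is named for the arrays.

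All probe sets were fitted with limma 3.58.1 in R 4.3.3 through lmFit and eBayes. The model held group alone and left 2 residual degrees of freedom. Two-sided p-values were adjusted by Benjamini-Hochberg over the 45037 probe sets, with 0.05 as threshold. An exact permutation test of 2 against 2 arrays cannot go below 0.333. Genes of the lists were represented by their probe set of highest mean. The procedure was tested on simulated data. The members and lists were chosen with earlier results of these data known. Genes named are all members, Zfp322a, in each list those with the lowest p past the threshold and a few named whatever their value, the nearest neighbours, and the 5 genes nearest in profile to Meg3 and to Dlk1. Dlk2, Kcnq1ot1, Zfp445, Dnmt3b, Suz12, Jarid2, Slc22a18, Igf2r and H13 were named after their values were seen. So were Peg3, Rxra, Klf9, Pax6, Thy1, the mES cell and endoderm markers and genes of which a list's count was small. Array centring, quantile normalization, a filter on dim probe sets, a variance trend, left-out arrays, a replicate block, the 1.5-fold rule, probe sets open to cross-hybridization, the mean of probe sets and, added after the data were seen, adjustment over genes were tried as alternatives.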

Additional observations from a re-analysis of the deposited data

How the results depend on the processing

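The noncoding probe sets were all lower in every refit that held them, with medians between -1.02 and -0.84 (-1.02 to -0.93 without 1 array). Since they were chosen on these same arrays, that direction was largely fixed beforehand and is no test. A variance trend and a replicate block cannot alter a difference of group means here, and both returned the same median of -0.94. Without 1 array the Dlk1 median lay between -0.02 and 0.04. Only 2 arrays per group limit every call. Leaving out an array or adding the replicate number of the titles as a block leaves 1 residual degree of freedom, and 0 of 45037 probe sets then passed limma's adjusted p (10572 to 11509 and 13586 at an unadjusted p under 0.05), so that 0 members in place of 16 were past the threshold and every list went to 0 in both directions. In these fits the Zfp322a differences lay between -1.67 and -1.27 for 1439035_at and between -1.97 and -1.78 for 1452374_at without 1 array, and with the replicate block they were -1.47 (adjusted p = 0.0523) and -1.87 (0.0513). Whether the replicate numbers pair the samples is not stated in the labels. Differences between replicates correlated at 0.06 between the groups, so that no shared effect of the numbers was seen, which cannot exclude a pairing. With array centring 1 thyroid hormone gene and 1 neighbour fell. Without dim probe sets 5 Notch genes and 6 neighbours rose. With a variance trend 7 imprint regulators fell and 6 neighbours rose. With the 1.5-fold rule 0 imprint regulators passed either way. In the Notch list 1 gene rose under that rule, and Rbpj (-1.08) and Notch4 (-0.93) fell. It also left 1 thyroid hormone gene that fell, 1 neighbour that rose and 0 that fell, and 2 other imprinted genes that rose and 0 that fell. With the mean of probe sets 1 imprint regulator rose and 7 fell, and with adjustment over genes 5 Notch genes and 6 neighbours rose. The direction turned for Tet1 (-0.29) and Yy1 (-0.13) with the mean of probe sets and for the imprinted gene Plagl1 (-0.02) without probe sets open to cross-hybridization. The causes were not tested.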

Other observations

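Genes whose values over the 4 arrays, each centred on its own mean, lay nearest to those of the brightest Meg3 probe set were Wfdc2, Ddah1, Tm7sf2, Pold2 and Anxa2, at Euclidean distances of 0.07 to 0.09 log2 units among 11387 candidates. Wfdc2, which encodes a secreted protease-inhibitor-like protein, went from 9.26 and 9.30 to 8.18 and 8.20. Pold2, a subunit of DNA polymerase delta, went from 10.45 and 10.51 to 9.42 and 9.38, and Anxa2, an annexin, from 10.07 and 10.21 to 9.04 and 8.98. With 4 arrays in 2 groups, a small distance says little more than that the differences between the groups were of like size. Nearest to Dlk1 were Coq7, Psph, Wars, Arl1 and Mrps18b, at distances of 0.01 log2 units. Of these Wars, a tryptophanyl-tRNA synthetase gene, is also a neighbour of the domain and read 8.99 and 9.16 against 9.04 and 9.06.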
